A study of Sus scrofa with 12 samples.

Results

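The small RNA of piglet small intestine 7 days after weaning was set against that 1 day after weaning. This comparison takes 6 of the 12 libraries of the series, chosen by the weaning group in their labels, and describes the known microRNAs in them. The deposited lists name 337 known pig microRNAs, of which 335 were listed in at least 1 of the 6 libraries and 306 to 322 in each. A filter on low counts kept 295 of them, and 2453 of the 5850 named small RNAs in all. The filter keeps names with about 10 counts or more in at least 3 of the 12 libraries, which may all be of 1 group. The 295 are therefore not all members.

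All piglets were of the breed labelled Big white, and both groups were weaned after 21 days of age. The group labelled Weaning1 had then been weaned for 1 day and the group labelled Weaning3 for 7 days, with 3 libraries each. The remaining libraries came from piglets still suckling (Feeding) and from piglets weaned for 3 days (Weaning2). The series set out to find effects of weaning on gene expression. As the labels read, days of weaning go with age, so the effects of weaning time and of age cannot be told apart. The labels tie no library to an animal, a litter, a sex or a stretch of the small intestine, so p-values measure only the spread between these libraries, which may be technical.

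MicroRNAs are short RNAs cut from hairpin precursors, and each precursor can give a 5p and a 3p arm. Loaded into an Argonaute protein, they pair with messenger RNAs and lower their translation or stability. In the small intestine miR-192, miR-194 and miR-215 mark the epithelium, miR-143 and miR-145 the smooth muscle and other mesenchymal cells of the wall, and microRNAs of the HOX gene clusters follow position along the body. Weaning replaces milk by solid feed and is known to be followed by shortened villi and later regrowth. In whole tissue, fewer cells of a type and less of an RNA per cell cannot be told apart.

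Depth was 24670093 to 27784417 counts in each of the 6 libraries, and known microRNAs received 6987325 to 18331061 counts. The 10 most abundant known microRNAs took 57.3% to 66.8% of those. The gut epithelium list (miR-192, both arms of miR-194b, miR-194a and miR-215) took 12.56% to 25.05% of the known microRNA counts and the liver and pancreas list at most 0.00409%, which goes with the labelled tissue.

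Replicate 1 of Weaning3 stood apart from every other library, and many of the results are therefore given with and without it. Known microRNAs took 25.3% of its counts, and totals for exons, introns and intergenic sequence took 62.17%. On the first principal component of the known microRNAs, which carried 40.1% of the variance, it lay at 28.2 where the other 11 libraries lay between -3.88 and 0.703. In it 27 known microRNAs were more than 4-fold below all 11 other libraries and 0 were more than 4-fold above them. The other libraries had 0 or 1 such microRNA below and 0 to 2 above. The 27 included let-7c, miR-20a, miR-138, miR-181a, miR-194a, miR-194b-5p, miR-199b-3p and miR-215.

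The share of the counts that fell on known microRNAs was lower in all 3 libraries after 7 days. It was 66.4%, 60.2% and 65.2% in the Weaning1 libraries and 25.3%, 48.3% and 53.6% in the Weaning3 libraries. The groups did not overlap, and the means were 64.0% ± 3.32 and 42.4% ± 15.04 (SD, n = 3). The difference of -21.57 percentage points was -13.02 without Weaning3 replicate 1. Predicted piRNAs, the class of small RNAs known for silencing transposons in the germ line, took 0.490% ± 0.037 of the counts after 1 day and 1.08% ± 0.146 after 7 days. Totals for exons, introns and intergenic sequence took 24.2% ± 2.81 and 44.6% ± 15.7, with no overlap either. For these 3 classes the exact permutation test gave a two-sided p of 0.1, the smallest that 20 relabelings of 3 against 3 allow, and 0.167 after Benjamini-Hochberg adjustment over 5 classes. Predicted microRNAs took 1.13% ± 0.141 and 1.99% ± 1.496 (exact permutation p = 0.4), where the difference of 0.858 points came to -0.003 without Weaning3 replicate 1. Rfam families, which include transfer and ribosomal RNA fragments, took 10.2% ± 1.80 and 9.98% ± 2.23 (exact permutation p = 0.9).

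**Figure D1:**
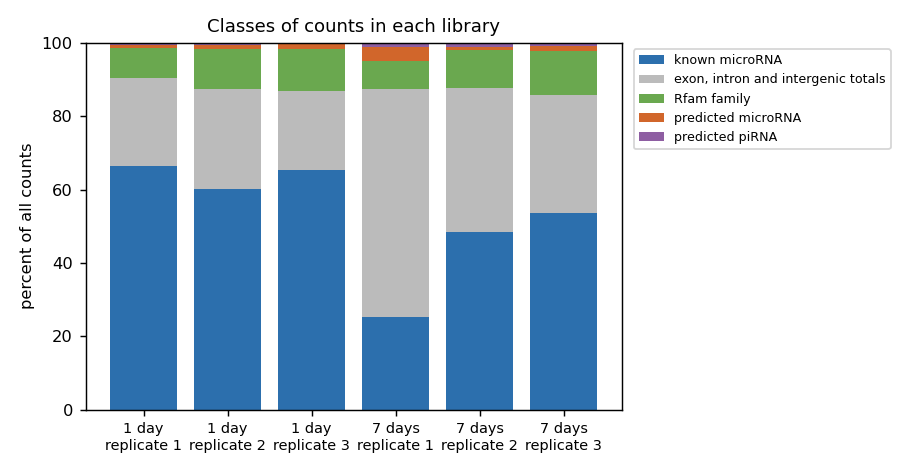
Percent of all counts of a library (y axis) in each class, for the 3 libraries weaned 1 day and the 3 weaned 7 days (x axis). Known microRNAs fill 60.2% to 66.4% of the bars after 1 day and 25.3% to 53.6% after 7 days, least in replicate 1.

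Because the classes shift against each other, a level depends on what it is scaled to. Levels in the text are normalised CPM, counts relative to the library total of the 2453 tested small RNAs with TMM scaling, unless stated otherwise. On that scale the median log2 difference between 7 days and 1 day was -0.47 over the 295 known microRNAs and 0.88 over predicted piRNAs. Of the known microRNAs 231 were lower and 64 higher. Without Weaning3 replicate 1 these medians were -0.29 and 0.38, with 212 known microRNAs lower and 83 higher. When known microRNAs were scaled and fitted alone, the median was -0.07, with 163 lower and 132 higher, and without Weaning3 replicate 1 it was 0.00. A log2 difference near -0.47 on the first scale, or near -0.29 without Weaning3 replicate 1, is therefore that of a typical known microRNA. Values on the second scale are given as those among known microRNAs alone.

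At an adjusted p under 0.05 (edgeR quasi-likelihood test, Benjamini-Hochberg adjustment over all small RNAs), 0 of 2453 small RNAs passed, or 0.0%. At an unadjusted p under 0.05 edgeR gave 247, or 10.1%, among them 23 known microRNAs, of which 21 were lower and 2 higher. Of all small RNAs tested 3.1% were lower and 6.97% were higher at that level. DESeq2 called 58 of the 2453 (2.36%), of which 4 were known microRNAs, edgeR with no low count filter called 149 of 5850 (2.55%), of which 10 were, and limma called 2 (0.0815%), of which 1 was. The 4 of DESeq2 were miR-676-3p, miR-10b, miR-129a-5p and miR-196b-5p, and limma's was miR-676-3p. Fitted alone, 1 of the 295 known microRNAs passed in edgeR (0.339%), again miR-676-3p, and 39 (13.2%) had an unadjusted p under 0.05. Without Weaning3 replicate 1 that fit called 7 (2.37%), with miR-676-3p and miR-10b lower and miR-204, miR-132, miR-144, miR-195 and miR-7139-3p higher.

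The known microRNA of smallest p was miR-676-3p. Its precursor MIR676-1 lies at X:56083372-56083451 (Sscrofa11.1) within the span of EDA, the gene of ectodysplasin A, a ligand of the tumour necrosis factor family. It stood at 1213, 968.7 and 1196 CPM in the Weaning1 libraries and at 241.1, 232.9 and 364.2 CPM in the Weaning3 libraries. All 3 libraries after 7 days were below all 3 after 1 day, and replicate 1 of Weaning3 lay between the other two of its group. The log2 difference was -2.01 ± 0.33 (SE; edgeR unadjusted p = 7.5e-05, adjusted p = 0.106), and -1.91 without Weaning3 replicate 1 (edgeR adjusted p = 0.3). Among known microRNAs alone miR-676-3p fell by 1.60 ± 0.28 on the log2 scale (edgeR adjusted p = 0.0374, and 0.0300 without Weaning3 replicate 1). That call was lost when any other of the 6 libraries was left out. The edgeR adjusted p was then 0.0698, 0.200 and 0.273 without Weaning1 replicates 1, 2 and 3, and 0.112 and 0.0958 without Weaning3 replicates 2 and 3, with log2 differences of -1.57 to -1.32. With only the 6 libraries in the fit it was 0.240.

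The other arm of the precursor was scarce. For miR-676-5p the counts were 42, 29 and 21 after 1 day and 18, 11 and 35 after 7 days, against 3887 to 23030 for the 3p arm. The groups overlapped for the 5p arm, and its log2 difference of -0.55 ± 0.76 (SE) was within its error, as was that of -0.13 among known microRNAs alone. Counted over the series, miR-676-3p averaged 2258 CPM in Feeding, 1126 after 1 day, 1100 after 3 days and 279.4 after 7 days. The log2 difference was -1.004 from Feeding to 1 day, -0.03 from 1 to 3 days and -1.98 from 3 to 7 days, with edgeR adjusted p of 0.847, 1 and 0.166. From Feeding to 7 days miR-676-3p fell by 3.02 on the log2 scale (edgeR adjusted p = 0.00572). These comparisons share libraries with the one described here.

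MiR-10b followed in p, and belongs with miR-10a, miR-196 and miR-615 to the microRNAs of the HOX clusters. HOX genes encode transcription factors that set position along the body axis, and these microRNAs are known to repress some of them. MIR10B lies at 15:81951644-81951723. MiR-10b stood at 6613, 8014 and 8776 CPM after 1 day and at 2640, 2910 and 2421 CPM after 7 days. The groups did not overlap, and the Weaning3 libraries lay closer together than the Weaning1 libraries. The log2 difference was -1.55 ± 0.26 (SE; edgeR adjusted p = 0.106), and without Weaning3 replicate 1 it was -1.55 as well (edgeR adjusted p = 0.3). Among known microRNAs alone it was -1.13 ± 0.24 (edgeR adjusted p = 0.0600), and without Weaning3 replicate 1 it fell by 1.25 on the log2 scale (0.0247).

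The miR-196 family had a larger difference with a larger spread. MiR-196a, whose precursor MIR196A-2 lies at 5:19204442-19204548 on the chromosome of the HOXC genes, was at 955.8, 1529 and 2436 CPM after 1 day and at 189.6, 526.3 and 75.64 CPM after 7 days. MiR-196b-5p was at 1355, 719.8 and 4889 CPM and at 30.35, 419.6 and 21.3 CPM. Neither microRNA had overlapping groups. Their log2 differences were -2.64 ± 0.94 and -3.89 ± 1.29 (SE; edgeR adjusted p = 0.441 for both), and -2.25 and -3.58 among known microRNAs alone. Leaving out Weaning3 replicate 1 gave -2.45 and -3.40, or -2.14 and -3.05 among known microRNAs alone. The first-scale difference of miR-196b-5p ranged from -6.51 without Weaning3 replicate 2 to -2.73 without Weaning1 replicate 3. MiR-196a and miR-196b are near-identical in sequence, so reads may be divided between the names. Their sum was 2311, 2249 and 7325 CPM after 1 day and 219.9, 946.2 and 96.91 CPM after 7 days, again without overlap on this scale.

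The same holds for miR-10a-5p with miR-10b, whose sum was 12690, 14080 and 18930 CPM after 1 day and 6428, 9329 and 6854 CPM after 7 days. MiR-10a-5p by itself overlapped between the groups, with a log2 difference of -0.61 ± 0.31 (SE), and of -0.21 among known microRNAs alone. MiR-615, whose precursor lies in HOXC5 at 5:19246763-19246850, was at 87.36, 52.32 and 44.7 CPM and at 13.59, 44.34 and 32.13 CPM, a difference of -1.03 ± 0.53 on the log2 scale (edgeR adjusted p = 0.441). The difference was -0.71 among known microRNAs alone, and the groups overlapped there. Of the 6 HOX cluster microRNAs tested, 6 were lower after 7 days, with a median log2 difference of -1.29 against -0.47 over all known microRNAs. Among known microRNAs alone 6 were lower with a median of -0.92 against -0.07, and the median was -0.94 without Weaning3 replicate 1. Without Weaning1 replicate 3 4 of the 6 were lower in that fit, with a median of -0.89, and without Weaning3 replicate 3 it was 5, with -0.72. With Weaning3 replicate 1 left out, 1 of the 6, miR-10b, passed in the fit of known microRNAs alone, where 7 of 295 (2.37%) did. Over all small RNAs without that library miR-10b did not pass (edgeR adjusted p = 0.3). As a share of the known microRNA counts the list held 1.57%, 2.11% and 2.85% after 1 day and 1.63%, 1.45% and 1.23% after 7 days, so that on this measure the groups overlapped.

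**Figure D2:**
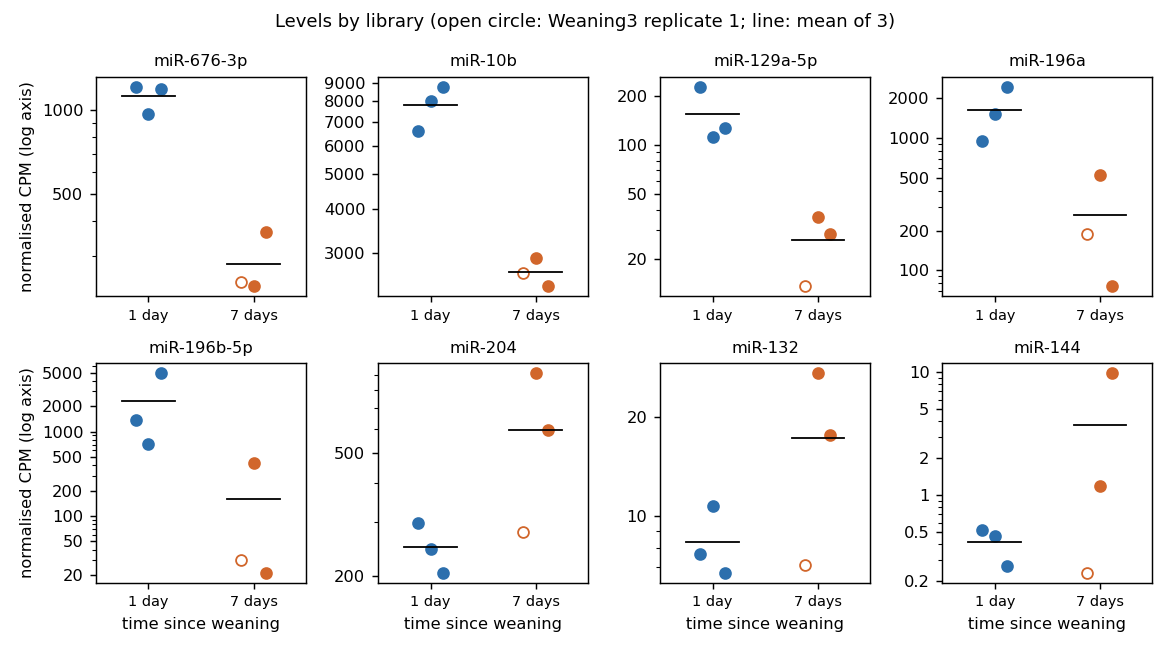
Normalised CPM on a log axis (y) after 1 and 7 days of weaning (x), 1 point per library, with a line at the mean of 3 and an open circle for Weaning3 replicate 1. The 5 microRNAs from miR-676-3p to miR-196b-5p have no overlap between the groups. These 5 were picked for small p in the same libraries, and 64 of 295 known microRNAs (21.7%) lay below without overlap. For miR-204, miR-132 and miR-144 the open circle lies among the 1 day libraries or below them.

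MiR-129a-5p, from a family abundant in neurons and endocrine cells, came next in p. Its precursor lies at 2:18724220-18724299. It was at 226.4, 111.1 and 127.1 CPM after 1 day and at 13.53, 36.25 and 28.34 CPM after 7 days. Every library after 7 days was below every library after 1 day, and Weaning1 replicate 1 was the highest. The log2 difference was -2.57 ± 0.71 (SE; edgeR adjusted p = 0.441), -2.26 without Weaning3 replicate 1, and -2.23 among known microRNAs alone. The 3p arm of the same precursor was at 14.32, 7.753 and 11.62 CPM and at 2.765, 2.517 and 7.544 CPM, a log2 difference of -1.39 ± 0.68. Scaled to known microRNAs alone, the groups did not overlap for the 5p arm but did for the 3p arm, whose difference was -1.02. MiR-7, the 1 tested member of the enteroendocrine list, was at 1605, 2986 and 2102 CPM after 1 day. After 7 days it was at 2175, 6333 and 1716 CPM, which overlapped. The log2 difference of miR-7 was 0.61 ± 0.48 (SE), with an edgeR adjusted p of 0.614. It was 0.96 among known microRNAs alone, and 1.13 there without Weaning3 replicate 1. On the first scale it ranged from -0.22 to 0.92 with single libraries left out.

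Of the 13 tested microRNAs on the list of neurons and neuroendocrine cells, 7 were lower and 6 higher. Their median log2 difference was -0.66, and -0.25 among known microRNAs alone. Without Weaning3 replicate 1 the latter median was 0.10, with 6 lower and 7 higher. It was 0.26 without Weaning1 replicate 1 and 0.22 without Weaning3 replicate 3. With any other of the 6 libraries left out it was -0.24 to -0.10. Brain microRNA miR-124a was at 13.32, 11.88 and 9.101 CPM after 1 day and at 16.12, 16.84 and 21.76 CPM after 7 days. It did not overlap between the groups, and its log2 difference of 0.67 ± 0.49 (SE) had an edgeR adjusted p of 0.577. It was 1.08 among known microRNAs alone, again without overlap. The summed list took 0.148% to 0.213% of known microRNA counts after 1 day and 0.160% to 0.199% after 7 days.

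Other microRNAs among the 12 of smallest p that were lower had smaller differences. Let-7g, of the let-7 family that restrains growth genes, was at 12390, 12520 and 14290 CPM after 1 day and at 6683, 9272 and 7753 CPM after 7 days. Its groups did not overlap, but its log2 difference was -0.73 ± 0.23 (SE) on the scale of all small RNAs and -0.32 with known microRNAs fitted alone. MiR-146a-5p, a microRNA induced by NF-kappaB that dampens innate immune signalling, was at 5300, 5059 and 4568 CPM and at 2526, 3217 and 2744 CPM, a difference of -0.82 ± 0.32 that was -0.41 among known microRNAs alone. MiR-103, a microRNA of metabolic tissues, was at 1541, 2251 and 2114 CPM and at 328.3, 1275 and 1062 CPM, with -1.15 and -0.85 on the 2 scales. In miR-103 and in miR-22-5p (-1.26 and -0.97) the lowest library was Weaning3 replicate 1, and without it the differences among known microRNAs alone were -0.46 and -0.56. MiR-100 and miR-425-3p differed by -0.85 and -0.75 on the scale of all small RNAs, where the fit of known microRNAs alone gave -0.47 and -0.33. Each of these microRNAs had an edgeR adjusted p of 0.441 on the scale of all small RNAs.

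On the scale of all small RNAs, 64 known microRNAs (21.7%) lay lower in all 3 Weaning3 libraries than in any Weaning1 library and 6 (2.03%) lay higher. Over all small RNAs tested these shares were 9.21% and 10.8%. Scaled alone, 26 known microRNAs (8.81%) were below without overlap and 23 (7.8%) above. The 6 above on the first scale were miR-124a, miR-1285, miR-218b, miR-339-3p, miR-424-5p and miR-7138-3p.

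Among the higher microRNAs miR-204 came first in p. Its precursor lies at 1:224065494-224065602 within TRPM3, a cation channel gene that hosts it in other mammals too. MiR-204 was at 297.4, 244.8 and 205 CPM after 1 day and at 277.8, 909 and 595.8 CPM after 7 days. Replicate 1 of Weaning3 fell among the 1 day libraries, and the other two were above them all. The log2 difference was 1.25 ± 0.43 (SE; edgeR adjusted p = 0.441). Scaled to known microRNAs alone, the levels were 319.9, 280.1 and 217.9 CPM against 516, 1172 and 756.7 CPM, with no overlap, and the log2 difference was 1.58 ± 0.34 (edgeR adjusted p = 0.0600). Without Weaning3 replicate 1 miR-204 rose by 1.89 on the log2 scale in that fit (edgeR adjusted p = 0.0247).

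MiR-132 and miR-212, known for their induction by CREB signalling in neurons, come from neighbouring precursors at 12:48162625-48163135. MiR-132 was at 7.688, 10.72 and 6.745 CPM after 1 day and at 7.118, 27.14 and 17.67 CPM after 7 days. Again Weaning3 replicate 1 was level with the 1 day libraries and the other two were higher. Among known microRNAs alone the log2 difference was 1.35 ± 0.40 (SE; edgeR adjusted p = 0.288). It was 1.70 without Weaning3 replicate 1, where miR-132 passed the test (edgeR adjusted p = 0.0368). MiR-212 had a log2 difference of 1.72 among known microRNAs alone, at levels of 0.803 to 3.296 CPM after 1 day and 2.542 to 8.928 CPM after 7 days, which overlapped.

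The further calls made without Weaning3 replicate 1 were of smaller size or rested on few counts. MiR-195, of the miR-15 and miR-16 family that restrains the cell cycle, was at 142, 81.01 and 113.2 CPM after 1 day and at 52.71, 291.8 and 213.2 CPM after 7 days. Its log2 difference among known microRNAs alone was 1.03 with all libraries and 1.48 without Weaning3 replicate 1 (edgeR adjusted p = 0.350 and 0.0300). MiR-497, from the neighbouring precursor in the cluster at 12:52422039-52422408, had 0.20 and 0.14. MiR-7139-3p, from a precursor within E2F7 at 5:104132132-104132191, was at 8.162, 7.01 and 9.85 CPM and at 4.176, 17.86 and 14.55 CPM, with 0.86 and 1.27 (edgeR adjusted p = 0.367 and 0.0368).

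MiR-144, a microRNA of the red cell lineage, had counts of 10, 10 and 5 after 1 day and of 4, 20 and 235 after 7 days. A single library, Weaning3 replicate 3, held most of them. The log2 difference among known microRNAs alone was 3.38 (edgeR adjusted p = 0.311), 3.99 without Weaning3 replicate 1 (0.0368) and 1.22 without Weaning3 replicate 3 (0.399). MiR-451, which shares the locus at 12:45088808-45089033 and is the main microRNA of red cells, stood at 3651 ± 587 CPM after 1 day and at 2919 ± 646.4 CPM after 7 days (SD, n = 3). Its log2 difference of -0.32 was 0.105 among known microRNAs alone, and the groups overlapped on both scales. The same library held 204 counts of miR-34c, a microRNA of ciliated and germ cells, where the other 5 libraries held 2 to 29.

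**Figure D3:**
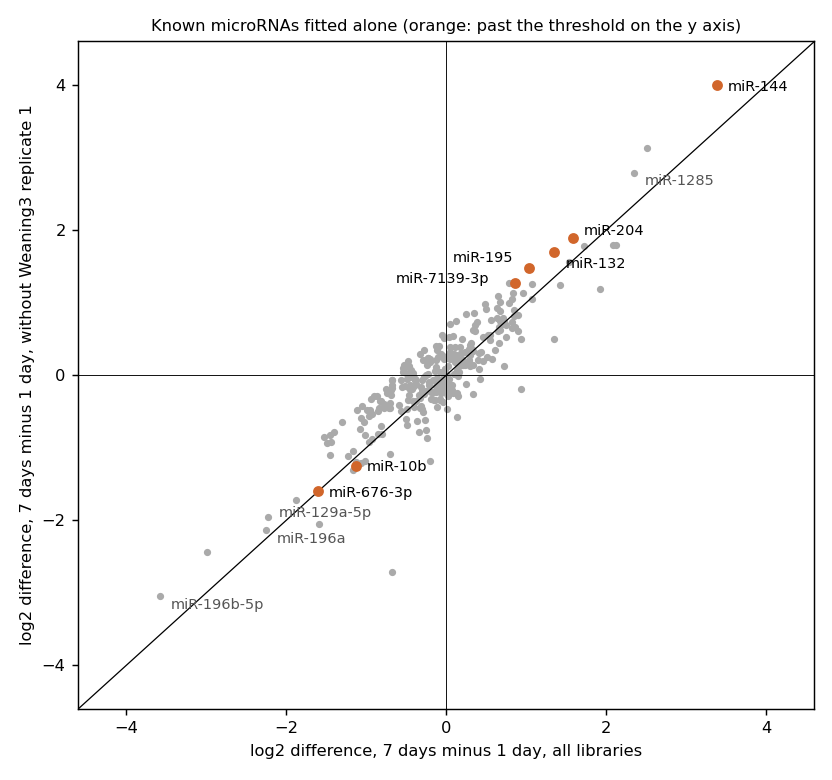
Log2 difference between 7 days and 1 day among known microRNAs fitted alone, with all libraries (x axis) and without Weaning3 replicate 1 (y axis), 1 point for each of 295 microRNAs, with the line of equal values. The 7 that pass the edgeR test on the y axis are in orange, with miR-676-3p on the line at -1.60 and the 5 higher ones above it.

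The other higher microRNAs of small p did not pass in any of these edgeR fits with the low count filter. MiR-1285 was at 99, 96.6 and 72.11 CPM after 1 day and at 105, 744.4 and 267.5 CPM after 7 days. The groups did not overlap, but the lowest Weaning3 library was close to the highest Weaning1 library. Its log2 difference was 2.06 ± 0.97 (SE; edgeR adjusted p = 0.441), and 1.05 without Weaning3 replicate 2. It was 2.35 among known microRNAs alone. MiR-218b, whose precursor lies within SLIT3, a guidance gene, was at 6.109, 11.61 and 6.799 CPM and at 34.06, 14.86 and 15.84 CPM, with a log2 difference of 1.40 ± 0.74, and of 1.92 among known microRNAs alone. Here Weaning3 replicate 1 was the highest library, and without it the difference was 0.91. MiR-4332, miR-935, miR-129b and miR-1307 overlapped between the groups, with log2 differences of 0.48 to 1.66. Scaled to known microRNAs alone, miR-4332 and miR-1307 no longer overlapped, with differences of 2.12 and 0.89.

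Of the 10 most abundant microRNAs, miR-191, miR-192, miR-26a, let-7a and miR-92a had log2 differences of -0.18 to 0.23 once known microRNAs were scaled alone. MiR-192, the leading microRNA of gut epithelium, was at 55860, 73120 and 104900 CPM after 1 day and at 52120, 57250 and 42820 CPM after 7 days. The groups overlapped, and the log2 difference was -0.62 ± 0.28 (SE), and -0.18 among known microRNAs alone. MiR-191 was at 74480 ± 4587 and 55670 ± 5226 CPM, which did not overlap, with a log2 difference of -0.42. It was 0.03 among known microRNAs alone, with overlap. MiR-181a and let-7c, among the microRNAs that Weaning3 replicate 1 held far below the others, had -0.50 and -0.54 on that scale, and 0.02 and 0.04 without that library. MiR-21, a microRNA of injured and proliferating tissue, was at 36500, 69770 and 69720 CPM after 1 day and at 8133, 85440 and 25680 CPM after 7 days. The Weaning3 libraries included both the lowest and the highest value of miR-21, and its log2 difference of -0.56 ± 0.63 (SE) was within its error, as was that of -0.29 among known microRNAs alone.

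Gut epithelium microRNAs were lower in 5 of 5 members, with a median log2 difference of -1.20, and -0.94 among known microRNAs alone. Without Weaning3 replicate 1 the latter median was -0.83, and without Weaning1 replicate 3 it was -0.74, with 3 of 5 lower. With the low count filter none of the 5 passed the edgeR test over all small RNAs or in either fit of known microRNAs alone. With no filter, edgeR called 10 known microRNAs, which included miR-215 and miR-194b-5p. MiR-194b-5p was at 78810, 48600 and 109100 CPM after 1 day and at 1648, 25160 and 45370 CPM after 7 days. Weaning3 replicate 1 was far below all others, and the other two were below the 1 day libraries as well. Scaled to known microRNAs alone the groups overlapped, also without that library, and the log2 difference was -1.46, or -0.83 without it. Summed with the near-identical miR-194a, the levels were 93690, 55580 and 123900 CPM and 2106, 31670 and 54340 CPM, and the log2 ratio of the means was -1.63, or -1.08 without Weaning3 replicate 1. MiR-215, at 1803, 1740 and 2817 CPM and at 5.941, 779.3 and 1095 CPM, shares the locus at 10:9704606-9704987 with miR-194b. Its difference was -1.76 ± 1.05 (SE), and -1.18 without that library, or -1.525 and -0.86 among known microRNAs alone. As a share of known microRNA counts the list took 15.7%, 16.8% and 25.05% after 1 day and 13.2%, 12.6% and 17.2% after 7 days, which overlap. The general epithelium list (miR-96, miR-182, miR-183, miR-205 and miR-429) had a median of -0.72, and of -0.21 among known microRNAs alone.

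Muscle microRNAs turned on 1 library of the 1 day group. MiR-143-3p, the main microRNA of smooth muscle, was at 200300, 38620 and 33040 CPM after 1 day and at 32080, 35100 and 28150 CPM after 7 days. Weaning1 replicate 1 was above all others, and the remaining 5 libraries lay close together. The log2 difference of -1.51 ± 0.57 (SE) was -0.19 without Weaning1 replicate 1, and among known microRNAs alone -1.07 turned to 0.23. MiR-1, miR-133a-3p and miR-133b of striated muscle were highest in the same library, at 205.1, 946.1 and 333.3 CPM. The list of 9 tested muscle microRNAs had 8 lower and a median of -0.91 among known microRNAs alone. Leaving out Weaning3 replicate 1 gave 9 lower and a median of -0.65. Leaving out Weaning1 replicate 1 gave 3 lower and a median of 0.11. The list took 21.3% of the known microRNA counts of Weaning1 replicate 1 and 3.77% to 7.90% of those of the other 5. How far muscle in that library enters the other differences was not tested.

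Mesenchymal microRNAs were lower in 4 of 8 members among known microRNAs alone, with a median of 0.01. MiR-199a-3p and miR-199b-3p, which are near-identical, swapped places between libraries. MiR-199b-3p was at 1153, 1533 and 6335 CPM and at 2.059, 6792 and 975.9 CPM, whereas the sum of both was 6631, 8297 and 7442 CPM after 1 day and 2010, 7741 and 5362 CPM after 7 days, with overlap. Endothelial miR-126-3p was at 13090 ± 2932 CPM after 1 day and at 13000 ± 1785 CPM after 7 days (SD, n = 3). Its log2 difference was -0.01, and 0.41 among known microRNAs alone, where the 5p arm had 0.54. Both arms overlapped between the groups, and neither passed the edgeR test in these fits. The median of the 2 arms among known microRNAs alone was 0.47, or 0.43 without Weaning3 replicate 1.

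Leukocyte microRNAs were lower in 8 of 8 members on the scale of all small RNAs (median -0.61), against 231 of 295 known microRNAs (median -0.47). Among known microRNAs alone 5 of 8 were lower (median -0.26), against 163 of 295 (median -0.07). Leaving out Weaning3 replicate 1 in that fit gave 7 of 8 lower (median -0.26), against 147 of 295 (median 0.00). MiR-155-5p, of activated lymphocytes and macrophages, was at 1585, 1531 and 1677 CPM after 1 day and at 179.6, 740 and 1106 CPM after 7 days. Its groups did not overlap, Weaning3 replicate 1 was lowest, and the log2 difference among known microRNAs alone was -0.96 ± 0.43 (SE; edgeR adjusted p = 0.367), or -0.49 without that library. MiR-150 of mature lymphocytes was at 6669 ± 973.4 and 5445 ± 178 CPM, with a log2 difference of 0.14 among known microRNAs alone.

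MicroRNAs of the imprinted DLK1-DIO3 cluster, many of which are expressed in fetal and mesenchymal tissue, were lower in 13 of 14 tested members, with a median of -1.13, and of -0.77 among known microRNAs alone. Without Weaning3 replicate 1 the latter median was -0.45, with 11 of 14 lower. The annotation places 1 listed name, miR-545-5p, on chromosome X and not in the cluster. Without it 12 of 13 were lower among known microRNAs alone with all libraries, with a median of -0.78. Without Weaning3 replicate 1 as well, 11 of the 13 were lower with a median of -0.45. With each other library left out, the median of the 13 ran from -1.13 to -0.50. These microRNAs were scarce, the whole list taking 0.0315% to 0.0347% of known microRNA counts after 1 day and 0.0182% to 0.0552% after 7 days. MiR-758 was at 5.266, 4.735 and 9.101 CPM and at 0.7647, 2.277 and 2.459 CPM, a log2 difference of -1.79 ± 0.78 (SE; edgeR adjusted p = 0.441) that was -1.46 among known microRNAs alone. It did not overlap between the groups on either scale, whereas miR-127, the most abundant of the list, did.

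With all libraries, the let-7 family, the miR-17-92 clusters of proliferating cells, the miR-30 family and the microRNAs abundant in milk stood close to the class as a whole. Their medians were -0.54, -0.41, -0.47 and -0.44 on the scale of all small RNAs. Among known microRNAs alone they were -0.12, -0.05, -0.09 and -0.05. Of the 12 tested milk microRNAs, 7 were lower and 5 higher on that scale. Without Weaning3 replicate 1 the medians among known microRNAs alone were -0.06, 0.20, -0.27 and -0.03, against 0.00 over all known microRNAs. The miR-17-92 list then had 4 members lower and 9 higher. Of the 3 microRNAs of red blood cells, 2 were lower on the scale of all small RNAs (median -0.18), whereas all 3 were higher among known microRNAs alone (median 0.17).

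**Figure D4:**
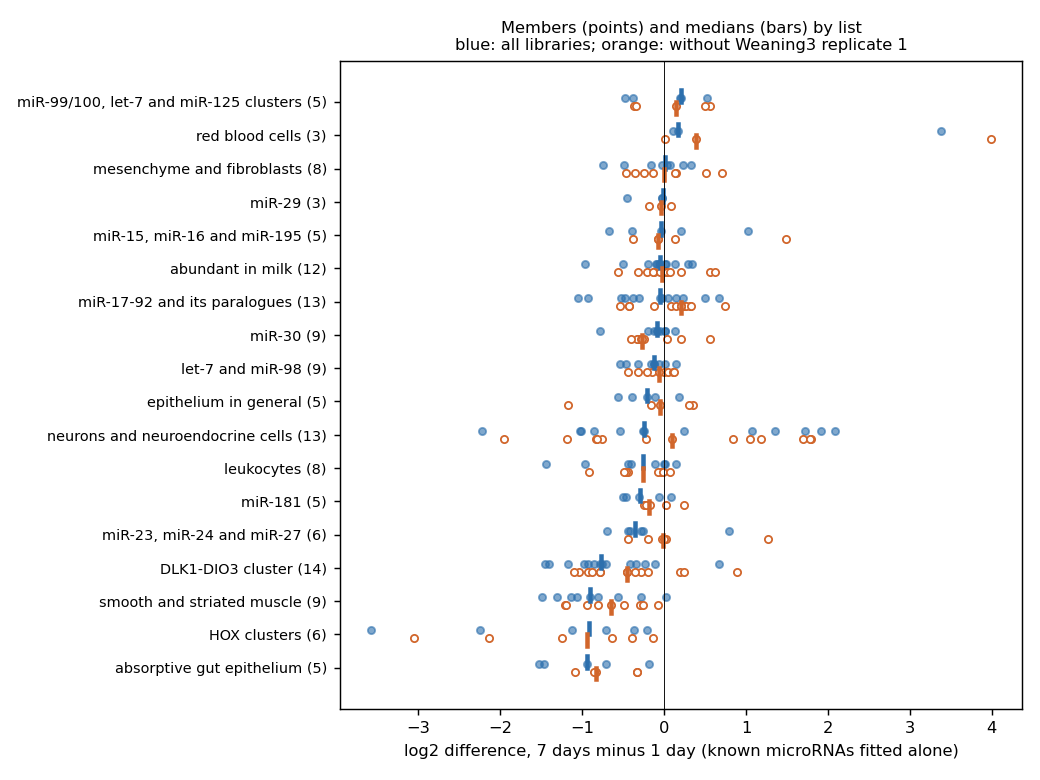
Log2 difference between 7 days and 1 day among known microRNAs fitted alone (x axis) for each tested member of a list (points) and its median (bars), in blue with all libraries and in orange without Weaning3 replicate 1, for lists of 3 or more tested members (number in brackets). The lowest medians are those of the gut epithelium, HOX cluster, muscle and DLK1-DIO3 lists, at -0.94 to -0.77 in blue.

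Both arms of a precursor were tested in 58 pairs, of which 32 had the same sign in both arms among known microRNAs alone. Pairs of unlike sign include values near 0, such as 0.004 ± 0.22 and -0.08 ± 0.27 (SE) for the arms of miR-28. In 8 pairs the arms differed by more than 1 on the log2 scale, namely miR-129a, miR-221, miR-361, miR-671, miR-676, miR-7138, miR-7140 and miR-769. In miR-676, miR-361 and miR-7138 the scarcer arm averaged 1.31, 1.96 and 1.45 CPM. Both arms of miR-7140, the pair that differed most, were scarce, at 0.33 and 1.28 CPM. These differences between arms were not tested.

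Seen over all 4 groups, the 7 day libraries were the lowest of the series for several of these microRNAs, and not for others. MiR-10b averaged 4158 CPM in Feeding, 7801 after 1 day, 7023 after 3 days and 2657 after 7 days, so that 7 days stood nearer to Feeding than to 1 day, with a log2 difference of -0.65 (edgeR adjusted p = 0.470). MiR-129a-5p averaged 34.61 CPM in Feeding and 26.04 after 7 days, with 154.9 after 1 day in between. MiR-204 averaged 264.4, 249.1, 452.2 and 594.2 CPM in that order. MiR-192 averaged 121900 CPM in Feeding, 77970 after 1 day, 112600 after 3 days and 50730 after 7 days. The comparisons behind these values share libraries, and none of these 4 microRNAs passed the edgeR test between Weaning3 and Feeding.

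**Figure D5:**
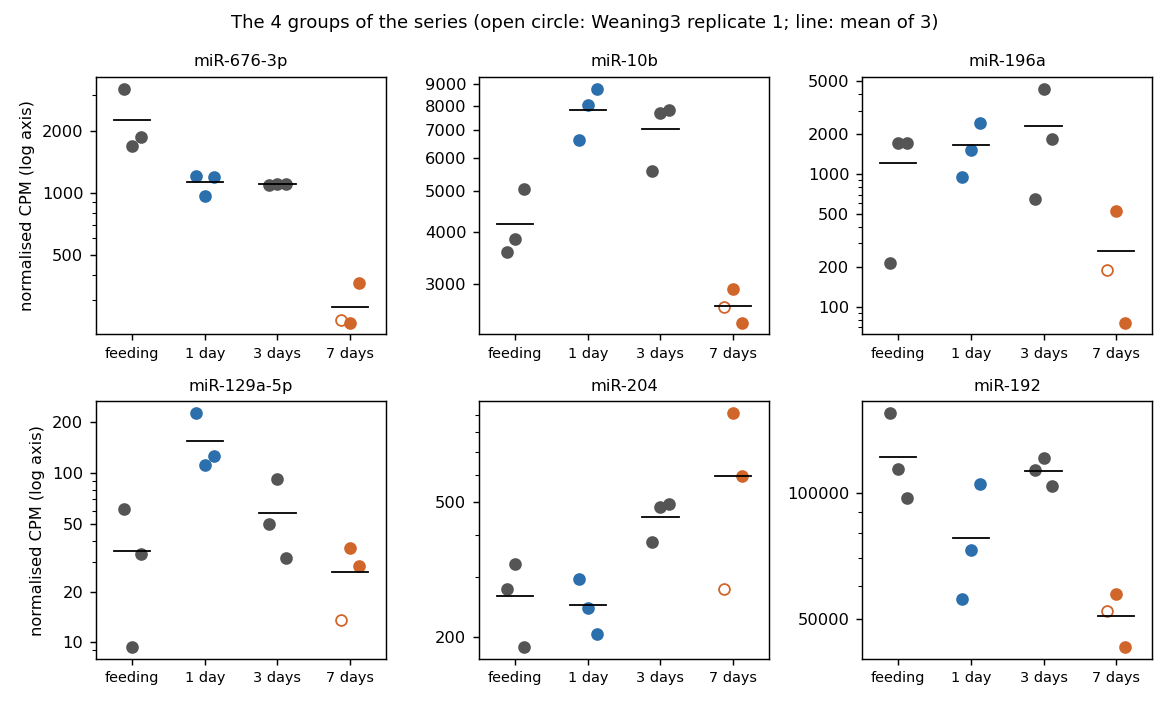
Normalised CPM on a log axis (y) in the 4 groups of the series (x), 1 point per library, with a line at the mean of 3 and an open circle for Weaning3 replicate 1. For miR-676-3p and miR-10b every library weaned 7 days lies below every other library of the series, and miR-129a-5p is highest after 1 day.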

How the data were processed

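Small RNA of pig small intestine was sequenced in 12 libraries. The deposited table lists small RNA names with a count and a TPM value for each library, per the file headers. The deposited TPM equals the CPM of a library's own list within 0.005, with no length term, and was not used further. Per the submitters' processing notes the genome build was Sscrofa11.1. Which aligner and counter were used, and how reads that match several names were counted, is not given in the sources used here.

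A name missing from a library was entered as 0, 8 repeated names were summed, and exon, intron and intergenic totals, which name no small RNA and took 21.6% to 62.17% of the counts of the 6 libraries, were left out of tests. Small RNAs were kept by filterByExpr (minimum count 10, minimum total 15) and tested with edgeR 4.0.16 in R 4.3.3 (TMM, 4 group means over 12 libraries, quasi-likelihood test, two-sided, Benjamini-Hochberg adjustment, threshold 0.05). SE was derived from the log2 difference and its F statistic. The script was tested on simulated data. Known microRNAs were refitted alone, with and without Weaning3 replicate 1. DESeq2 1.42.0, limma 3.58.1, other filters and scalings, and leaving out each library were tried as alternatives. The fits gave a biological coefficient of variation of 129% for all small RNAs, 45.81% for known microRNAs and 39.16% for these without Weaning3 replicate 1. Before TMM scaling, 3 counts in a library correspond to 0.143 to 0.287 CPM of its named small RNAs. PCR copies cannot be told apart.

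Named microRNAs are those past the threshold in a fit, the 12 of smallest p in each direction, the 10 most abundant, the 2 most abundant and the called members of each of 25 lists, and the other arms of these. MiR-124a, miR-155-5p, miR-215, miR-615, miR-758, miR-497 and the striated muscle microRNAs fall outside this rule and were chosen after their values were seen, as was miR-194a for its sum. Likewise chosen then were the sums of near-identical names, and the fits of known microRNAs alone with DESeq2, with limma or without other single libraries. The members and lists were chosen with earlier results of these data known. Precursor positions are from the RefSeq annotation of Sscrofa11.1, where 68 of 76 named microRNAs matched by name.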

Additional observations from a re-analysis of the deposited data

How the results depend on the processing

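Over all small RNAs, the counts of calls under edgeR were 0 with other scalings, a stricter filter, only the 6 libraries, repeated names not summed, or any one library left out. With no filter they were 149, of which 10 were known microRNAs, with DESeq2 58 and 4, and with limma 2 and 1. Among known microRNAs alone edgeR called 1 and limma 1, DESeq2 called 6, and edgeR called 7 without Weaning3 replicate 1 and 0 without any other single library or with only the 6 libraries. Upper-quartile scaling moved the median of all small RNAs from 0.35 to -0.10 and that of known microRNAs from -0.47 to -0.94 (log2), with 274 known microRNAs lower and 21 higher. The 27 microRNAs followed under 25 alternatives were mostly chosen for small p in the main fit of the same libraries, where none passed. Kept directions were therefore nearly given, and a kept side of the threshold means not called. Sizes varied, as for let-7g from -1.20 to -0.09 and miR-1307 from 0.01 to 1.25. Of 668 log2 differences of these microRNAs, 638 kept their direction and side of the threshold, 27 passed it, and 3 turned. Without Weaning1 replicate 1, among known microRNAs alone, miR-143-3p came to 0.23 and miR-676-5p to 0.18, and without Weaning3 replicate 2 miR-676-5p came to 0.28. With each library left out in turn, the difference in the share of counts ran from -27.17 to -13.02 percentage points for known microRNAs, from 11.56 to 26.57 for genomic totals, from 0.534 to 0.672 for predicted piRNAs, from -0.003 to 1.354 for predicted microRNAs and from -1.295 to 0.927 for Rfam families. As a share of the named small RNAs alone, Rfam families differed by 4.797 points. The causes of these changes were not tested.

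No paired analysis was possible because the labels give the libraries of the groups no shared replicate numbers, and the numbers used here only name them.

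With 3 libraries a group, 1 of which stands apart, the precision of every difference is limited by the spread between libraries. Depth limits the scarce microRNAs as well, such as miR-144 with 4 to 20 counts in 5 of the 6 libraries.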
